A study of Mus musculus with 11 samples.

Results

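Dystrophin (Dmd), its paralog utrophin (Utrn), 6 genes of the membrane complex that dystrophin joins (Dag1, Sgca, Sgcb, Sgcd, Dtna and Sntb1) and the cell-junction gene Ctnna3 were followed in RNA from mouse hearts with and without deletion of Cd36, a fatty acid transporter gene. These 9 genes were taken by symbol from the 23420 genes of the deposited table, and all 9 were present. They were chosen by name with measured differences between these groups already known, so those differences are given as a description. How many of them pass the threshold set for other genes is printed once, beside the share of all genes, and is not a test of the 9 genes. The tests below concern 86 other genes of the same structures. Reads were counted in 11 libraries: 2 labelled Control, 3 EC cd36 KO, 3 MHC cd36 KO and 3 Total cd36 ko, called the Control, EC, MHC and Total groups here. All 11 carry the strain label of Cd36 loxp mice bred to each other. The EC group came from a cross with Tie2-cre mice, for deletion in endothelial cells, and the MHC group from a cross with MHC-cre mice, for deletion in cardiomyocytes. The labels name no Cre for the Control group, so the presence of a Cre and the loss of Cd36 cannot be told apart in the EC and MHC groups. How the Total group was made, and the age and sex of the mice, are not given in the labels. The label numbers of the MHC libraries and those of the Total libraries each form a separate run, while those of Control lie among those of EC. What those numbers stand for is not stated, so a difference that goes with them cannot be told apart from the group.

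Dystrophin is a long rod-like protein under the muscle cell membrane. One end holds actin filaments and the other holds dystroglycan, which in turn binds laminin in the matrix outside the cell, and the sarcoglycans stabilise this link. Loss of dystrophin causes Duchenne muscular dystrophy and a cardiomyopathy, and loss of the sarcoglycan encoded by Sgca, Sgcb or Sgcd causes limb-girdle forms. Ctnna3 encodes alpha-T-catenin, which links cadherin junctions to actin at the intercalated discs between cardiomyocytes.

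The libraries held 2268403 to 20105673 reads in genes. The smallest was EC replicate 1, and the next smallest, Total replicate 1, held 11157062. Cd36 itself stood at 44529.6 and 35425 normalized counts in Control, 30308, 27804 and 25758 in EC, 15792, 21610.2 and 21363 in MHC and 18847, 23452 and 21266 in Total. Each knockout library was below both Control libraries, and the libraries labelled as a total knockout kept 53.0% of the Control mean. The labels do not say which part of Cd36 was deleted, so counts over the whole gene do not check for the deletion itself. Markers fitted the labelled tissue: 8 cardiomyocyte genes summed to 700400 to 1312000 normalized counts, and 7 skeletal muscle genes to 19.61 to 48.34. In the MHC group the cardiomyocyte sum was lower (700400 to 1029000, against 1146000 to 1164000 in Control), although none of its 8 genes passed the test against Control. Its fibroblast sum was 23890 to 48590 against 17640 to 17820 in Control, with 4 of 8 genes called higher. The macrophage sum was 7697 to 14720 against 4153 to 4452, with 7 of 8 genes called higher. Endothelial markers summed to 14180 to 14890 against 16500 to 17320, with none of 8 called. Of 8 smooth muscle and pericyte genes, 1 was called higher and 2 lower. The sum of 5 atrial genes was 106000 to 215800 against 6095 to 10220. Nppa, which encodes atrial natriuretic peptide, made up nearly all of it, while the atrial genes Myl7, Sln and Bmp10 had MHC means of 5.83, 0.216 and 1.27. Between MHC and EC more markers were called, where 19.1% of all tested genes were. Lower in MHC were 3 of 8 cardiomyocyte, 5 of 8 endothelial and 3 of 8 smooth muscle and pericyte genes. Higher were 7 of 8 fibroblast genes, 8 of 8 macrophage genes and 1 smooth muscle and pericyte gene. The measurements are sums over whole tissue, in which fewer cells of a type and less RNA per cell cannot be told apart.

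Dmd and Ctnna3 are both very long genes. Dmd lies on the plus strand of chrX:82948870-85206141 (GRCm38, mm10) and spans 2257 kb, of which 1.05% is exon in the merged gene model. Ctnna3 lies on the plus strand of chr10:63430098-65003667, spans 1574 kb and is 0.459% exonic. Sgca, by contrast, takes up 13.5 kb on the minus strand of chr11:94962791-94976327. The others are Utrn (chr10:12382188-12869365, minus strand), Dag1 (chr9:108204634-108263958, minus), Sgcb (chr5:73632749-73647790, minus), Sgcd (chr11:46896253-47988969, minus, 1093 kb) and Sntb1 (chr15:55636388-55906949, minus). Of the members, Dtna alone shares exonic bases with another annotated gene, 90 bases with an antisense transcript. The gene Lrrtm3 lies inside Ctnna3 on the opposite strand without sharing exonic bases.

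The 3 members with the lowest MHC levels relative to Control were Dmd, Ctnna3 and Sgca, and the 250 bases before their RefSeq transcript starts are printed to show what the windows of these genes hold. RefSeq (GRCm38.p6) gave such windows for 7 of the 9 members, at 11 starts, and none for Dtna and Sntb1. The Dmd windows are chrX:82948620-82948869 and, at an internal start, chrX:85048045-85048294. Those of Ctnna3, the first 2 of its 3 starts, are chr10:63429848-63430097 and chr10:63457261-63457510, and that of Sgca is chr11:94976328-94976577 on the minus strand. Each is written 5′ to 3′ along its gene, and capitals mark motif matches on either strand.
Dmd first start: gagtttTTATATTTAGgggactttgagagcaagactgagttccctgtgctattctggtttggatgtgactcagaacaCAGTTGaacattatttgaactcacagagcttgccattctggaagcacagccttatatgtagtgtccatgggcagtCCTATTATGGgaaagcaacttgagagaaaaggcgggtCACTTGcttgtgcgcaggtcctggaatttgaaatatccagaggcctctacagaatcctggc
Dmd internal start: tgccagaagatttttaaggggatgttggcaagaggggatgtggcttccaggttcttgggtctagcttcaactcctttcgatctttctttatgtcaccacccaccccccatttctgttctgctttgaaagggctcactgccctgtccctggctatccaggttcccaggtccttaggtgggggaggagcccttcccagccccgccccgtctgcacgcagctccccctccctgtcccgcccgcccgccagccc
Ctnna3 first start: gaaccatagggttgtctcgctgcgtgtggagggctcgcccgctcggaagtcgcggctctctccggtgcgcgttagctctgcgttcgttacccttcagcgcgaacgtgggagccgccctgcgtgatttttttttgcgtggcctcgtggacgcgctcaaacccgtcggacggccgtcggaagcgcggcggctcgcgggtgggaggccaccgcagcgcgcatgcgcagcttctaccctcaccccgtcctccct
Ctnna3 second start: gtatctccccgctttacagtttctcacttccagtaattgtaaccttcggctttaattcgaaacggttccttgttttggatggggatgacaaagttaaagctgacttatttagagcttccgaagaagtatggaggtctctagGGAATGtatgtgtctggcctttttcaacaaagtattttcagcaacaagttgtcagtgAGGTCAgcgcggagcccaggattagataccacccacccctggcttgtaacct
Sgca start: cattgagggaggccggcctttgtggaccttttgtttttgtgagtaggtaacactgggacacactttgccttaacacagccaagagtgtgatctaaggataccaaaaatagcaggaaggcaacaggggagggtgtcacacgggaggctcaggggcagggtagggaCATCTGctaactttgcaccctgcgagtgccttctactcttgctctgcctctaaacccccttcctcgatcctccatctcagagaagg
The motifs searched, on both strands, were the E-box spelled CANNTG, the muscle motif M-CAT spelled CATTCC, the binding motif of GATA factors spelled GATAA, a nuclear receptor hexamer spelled AGGTCA, the CArG box and the MEF2 site. No 2 matches overlap in the windows printed, apart from the same letters read on both strands. The first Dmd window held 2 E-boxes, a CArG box at -98 and a MEF2 site at -244 from the start. The second Ctnna3 window held an M-CAT match at -109 and the hexamer at -52, and the Sgca window an E-box at -86. The internal Dmd window and the first Ctnna3 window held none of the 6 motifs, so no motif was present in every window printed. Among 32851 promoter windows of the same length, 66.2% held an E-box, 12.6% M-CAT, 22.6% GATA, 14% the hexamer, 1.47% the CArG box and 2.92% the MEF2 site. GC content was 45.2% and 60.0% in the Dmd windows, 67.6% and 44.8% in those of Ctnna3 and 52.8% in that of Sgca. A match is a stretch of letters and not a measured binding site.

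Dmd was lower in every MHC library than in any other library. It stood at 2113 and 1648 normalized counts in Control, 2338, 2239 and 1881 in EC, 626, 910.5 and 727 in MHC and 2109, 2319.9 and 1963 in Total. The group means ± SD were 1880.1 ± 329 in Control (n = 2), 2153 ± 240.2 in EC, 754 ± 144 in MHC and 2131 ± 179.6 in Total (n = 3 each). The order was thus EC, Total, Control and MHC, and the ranges of the first 3 overlapped. The MHC mean was 40.1% of Control, a difference of -1.32 ± 0.16 (log2 of the value plus 1, with SE). Against EC it was -1.52 ± 0.14, and Total was 1.51 ± 0.14 above MHC. By contrast, EC and Total differed from Control by 0.20 ± 0.16 and 0.19 ± 0.16. Dmd counts rested on 811, 1406 and 889 reads in the MHC libraries and 2718 and 2210 in Control.

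**Figure D1:**
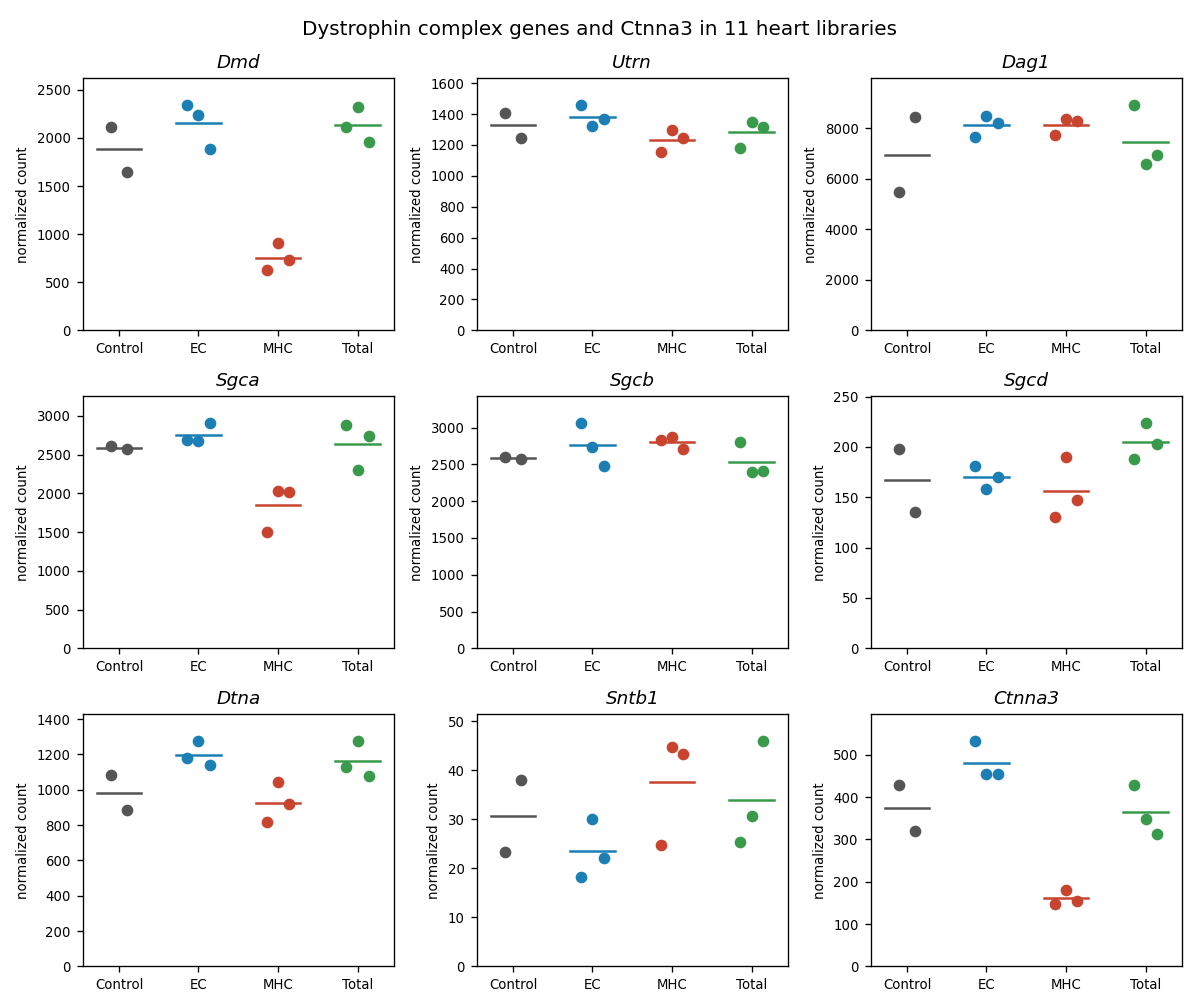
Normalized counts (vertical axes, each from 0) of the 9 genes in the 11 libraries, by group (horizontal axes): points are libraries and bars are group means. The 3 MHC points of Dmd (626 to 910.5) and Ctnna3 (147 to 180.0) lie below all other points of those genes.

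The cardiomyocyte markers were also lower in the MHC group, so Dmd was set against them within each library. Per 100000 summed counts of the 8 cardiomyocyte markers, Dmd was 184 and 142 in Control, 178, 175 and 153 in EC, 89.3, 88.4 and 73.7 in MHC and 163, 193 and 159.5 in Total. The 3 MHC libraries stayed below the other 8 on this scale too. MHC replicate 1, which had the smallest cardiomyocyte sum (700400) and the lowest Dmd count, had a ratio (89.3) close to that of replicate 2 (88.4). The sum is weighted to its most counted genes, such as Myh6 (mean 428800 in Control and 316600 in MHC). It is not a measure of cardiomyocyte number, and the part of cardiomyocyte content in the Dmd values was not tested.

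Utrn, whose protein can take the place of dystrophin at the membrane, stayed within a narrow band. It stood at 1409.9 and 1244 in Control, 1456, 1324 and 1369.5 in EC, 1156, 1296 and 1248 in MHC and 1180.1, 1349.7 and 1316 in Total. The MHC and Control ranges overlapped, with a difference of -0.10 ± 0.10. The MHC libraries lay below all EC libraries, with a difference of -0.17 ± 0.09. Counts were divided by the merged exon length of all annotated transcripts, 23.8 kb for Dmd and 17.1 kb for Utrn. On this scale Dmd and Utrn were close in Control (79.0 ± 13.8 and 77.6 ± 6.88 normalized counts per kb). Which transcripts were made was not measured, so the level of a gene relative to another depends on the length chosen. In MHC they were 31.7 ± 6.07 and 72.1 ± 4.14 per kb. Utrn per kb was 92.8 and 105% of Dmd in the Control libraries, 86.6, 82.3 and 101% in EC, 257, 198 and 239% in MHC and 77.8, 80.9 and 93.3% in Total. The ratio was therefore highest in the 3 MHC libraries, while the Utrn level itself overlapped between MHC and Control.

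**Figure D2:**
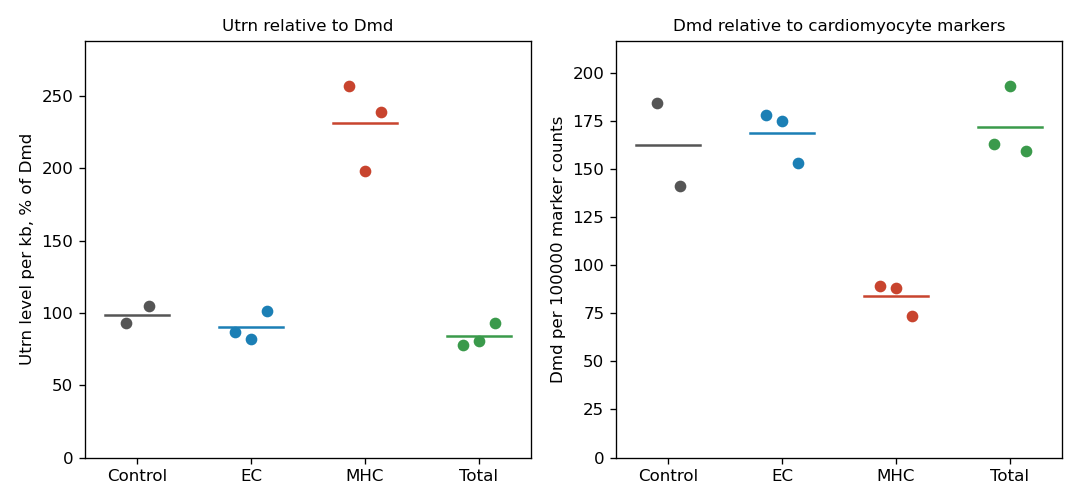
Left, Utrn level per kb of exon as a percentage of the Dmd level per kb; right, Dmd counts per 100000 summed cardiomyocyte marker counts, both by group (horizontal axis) with a point per library and a bar at the group mean. On the left the MHC libraries (198.0 to 257%) lie above the other 8, and on the right they (73.7 to 89.3) lie below them.

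Dag1 encodes both subunits of dystroglycan, the receptor that spans the membrane. It was the most counted member, at 5462 and 8429.9 in Control, 7662, 8495 and 8199 in EC, 7724, 8382 and 8274 in MHC and 8908, 6586 and 6938 in Total. The 2 Control libraries lay apart, and their range held every MHC library. The difference of MHC from Control was 0.26 ± 0.17, and it turned from 0.57 without Control replicate 2 to -0.05 without Control replicate 1. MHC and EC differed by 0.00 ± 0.15.

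The sarcoglycans did not move together. Sgca encodes alpha-sarcoglycan, a form made in striated muscle. It stood at 2610.0 and 2567 in Control, 2689, 2676 and 2903 in EC, 1507, 2026 and 2018 in MHC and 2886, 2298 and 2738 in Total. All 3 MHC libraries were below the other 8, and replicate 1 was the lowest of them. The MHC mean was 71.5% of Control (-0.50 ± 0.14) and 67.1% of EC (-0.59 ± 0.12). The cardiomyocyte marker sum was likewise lower in the 3 MHC libraries (700440, 1029400 and 985810) than in the other 8 (1146200 to 1312300). It too was lowest in replicate 1. Unlike Dmd and Ctnna3, Sgca was not set against this sum. Whether Sgca was low relative to the cardiomyocyte markers is therefore not shown, and their part in its values was not tested.

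Sgcb, which encodes beta-sarcoglycan, was 2595 and 2574 in Control, 3057, 2743 and 2472 in EC, 2829, 2877 and 2713 in MHC and 2798, 2403 and 2413 in Total. Its MHC libraries lay above both Control libraries by 0.12 ± 0.11, the opposite side from Sgca. Sgcd encodes delta-sarcoglycan and is the third member longer than 1000 kb. It was 198 and 136 in Control, 181, 158 and 169.8 in EC, 130.4, 189.7 and 147 in MHC and 188, 223 and 203 in Total. Its MHC and Control ranges overlapped (-0.09 ± 0.19), and the Total libraries lay above the EC libraries (0.27 ± 0.17). The EC replicate 1 value of Sgcd rests on 30 reads.

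Dtna and Sntb1 encode alpha-dystrobrevin and beta-1-syntrophin, which sit on the inner side of the complex and bring signalling proteins to it. Dtna was 1083 and 883 in Control, 1178, 1274 and 1142 in EC, 815, 1046 and 919 in MHC and 1128, 1274 and 1080.2 in Total. The EC libraries lay above those of Control (0.29 ± 0.13) and of MHC, where the difference of MHC from EC was -0.38 ± 0.11. MHC and Control overlapped (-0.08 ± 0.13). Sntb1 was the least counted member, at 23.3 and 38.0 in Control, 18.1, 30.1 and 22.1 in EC, 24.7, 44.7 and 43.3 in MHC and 25.5, 30.7 and 45.9 in Total. These values rest on 3 reads in EC replicate 1 and 20 to 69 in the other 10 libraries, and every comparison with Control overlapped.

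Ctnna3, like Dmd, was lowest in the 3 MHC libraries, and its EC libraries lay above those of Control. It stood at 429.8 and 321 in Control, 532, 456 and 455 in EC, 147, 180.0 and 154 in MHC and 429, 349 and 314 in Total. The means were 375 ± 77.2, 481 ± 44.0, 160.4 ± 17.3 and 364 ± 59.1. EC had the highest mean, with each library above all those of Control (0.37 ± 0.17) and Total, and MHC was lowest at 42.7% of Control (-1.21 ± 0.17). The MHC mean was 33.3% of EC (-1.58 ± 0.15). Control and Total overlapped (-0.04 ± 0.17). Without Control replicate 1 the difference of MHC from Control was -1.0.

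Set against the 8 cardiomyocyte markers, Ctnna3 was 37.5 and 27.5 per 100000 marker counts in Control, 40.5, 35.7 and 37.1 in EC, 21.0, 17.5 and 15.6 in MHC and 33.2, 29.1 and 25.5 in Total. The MHC libraries remained the lowest 3, and the part of cardiomyocyte content in the Ctnna3 values was not tested. Its widely expressed relative Ctnna1, encoding alpha-E-catenin, had means of 11116 ± 971 in Control and 11948 ± 979.6 in MHC and did not pass the test between them. Per kb of exon, Ctnna3 was 3.66 and 2.41% of Ctnna1 in Control, 4.34, 3.77 and 3.14% in EC, 1.21, 1.29 and 1.08% in MHC and 3.11, 2.68 and 2.44% in Total.

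**Figure D3:**
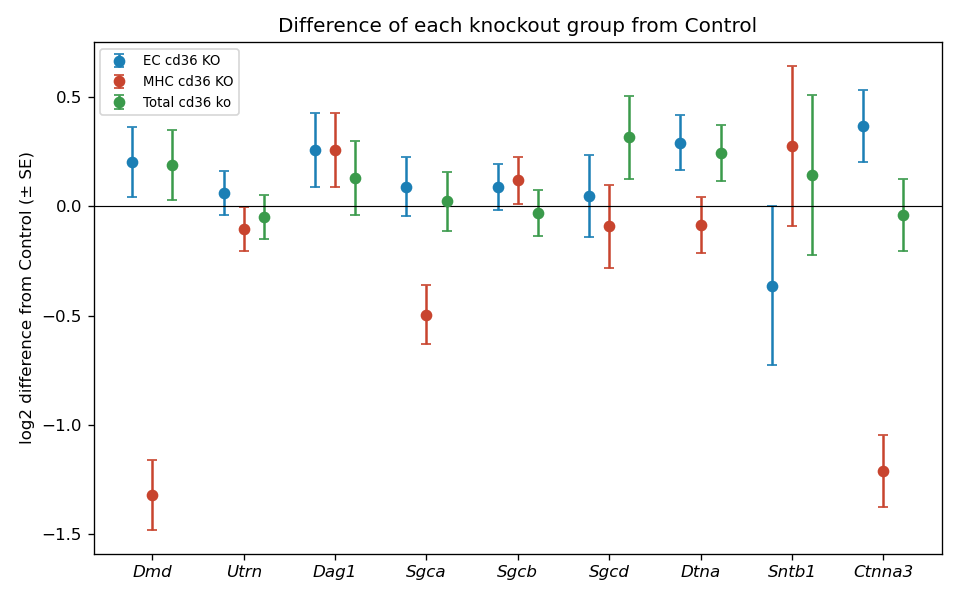
Log2 difference of each knockout group from Control (vertical axis) for the 9 genes (horizontal axis), with SE as bars, from 1 limma fit of the 11 libraries. Dmd (-1.32), Ctnna3 (-1.21) and Sgca (-0.50) have the 3 lowest MHC values, while the MHC values of the other 6 lie between -0.10 and 0.28.

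A gene was called when its adjusted p in limma (Benjamini-Hochberg over 12976 genes, those averaging 10 or more) was under 0.05. All 9 members passed the filter on the mean. Because they were chosen with these values known, the counts of members that follow describe the choice, and nothing is read from them. Against Control, 2 members were called in MHC, both lower (Dmd and Ctnna3), where 5.70% of all tested genes were called and 2.40% were called lower. edgeR and DESeq2 on the recovered reads each called 3, Sgca as well. None was called in EC (background 0.316%) or Total (background 0.0848%) with any of the 3 tools. In limma 2 members in EC and 0 in Total had an unadjusted p under 0.05. The share of all genes at that unadjusted threshold was not counted, so these numbers cannot be set against a background. The 4 called between MHC and EC were lower in MHC (Dmd, Ctnna3, Sgca and Dtna), with 19.1% of all genes called and 8.72% called lower. The 3 called between Total and MHC were higher in Total (Dmd, Ctnna3 and Sgca), with 16.4% called and 8.20% called higher. Not all of these member calls were stable. That of Ctnna3 in MHC against Control was lost without Control replicate 1. That of Dtna between MHC and EC was lost without EC replicate 1, 2 or 3 or MHC replicate 1 or 3, left out singly. It was also lost after rescaling by library total or upper quartile. That of Sgca between Total and MHC was lost without Total replicate 1 or 3. None was called by limma between Total and EC, where 0.0385% of genes were. There 1 member had an unadjusted p under 0.05, again without a counted share of all genes. The members' median difference of MHC from Control was -0.09, beside 0.00 for all tested genes, and 4 members had ranges that did not overlap, as 36.6% of all genes did. The ranges of 3 members did not overlap between EC and Control (25.1% of all genes), those of 0 between Total and Control (25.1%), 5 between MHC and EC (38.8%), 2 between Total and EC (19.7%) and 4 between Total and MHC (38.9%). The comparisons with Control share its 2 libraries.

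The calls over all genes that form this background rested partly on single libraries. In MHC against Control, 739 genes were called, but 26 without Control replicate 1 (11 higher and 15 lower), 366 without MHC replicate 1, 476 without Total replicate 3 and 63 in a fit to these 2 groups alone. edgeR called 1007 and DESeq2 1276. In EC against Control, 41 were called, with 5 without Control replicate 2 and 5 to 84 over all libraries left out in turn, and 162 with DESeq2. In Total against Control, 11 were called, with 1 without Control replicate 1, 33 without MHC replicate 1 and 93 with DESeq2. Leaving out each library in turn gave 1455 to 2582 between MHC and EC, with the lowest count without MHC replicate 1, and 1036 to 2272 between Total and MHC, with the lowest without Total replicate 3.

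The scale used also affects how these calls divide by direction. In MHC against Control, 427 were higher and 312 lower on the authors' scale, 568 and 237 after rescaling by library total, and 414 and 174 by upper quartile. MHC against EC gave 1348 higher and 1131 lower, then 2088 and 640, then 2061 and 426 in the same order. Total against MHC gave 1064 and 1064, then 547 and 1750, then 482 and 1252.

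Length of the gene was looked at after the values were seen. The annotation gives 25 tested genes a span over 1000 kb, Dmd, Ctnna3 and Sgcd among them. Their median difference of MHC from Control was -0.09, beside 0.01 for spans of 500 to 1000 kb, -0.02 for 100 to 500 kb, -0.01 for 10 to 100 kb and 0.02 under 10 kb. The 2 of the 25 that were called lower were Dmd and Ctnna3, which were chosen with their low values known, and none was called higher. Shares called lower and higher were 3.66% and 3.66% for 500 to 1000 kb, 2.48% and 3.85% for 100 to 500 kb, 2.45% and 3.29% for 10 to 100 kb and 2.06% and 3.31% under 10 kb. Ptprd, the longest of the 25 at 2271 kb, had a difference of -0.58, and Sgcd had -0.09. The lowest of the 25 was Ccser1, which is not a member (-1.62, adjusted p = 0.0777 by limma). Its mean of 10.4 normalized counts lies close to the filter. A span was found for 93.9% of the tested genes.

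**Figure D4:**
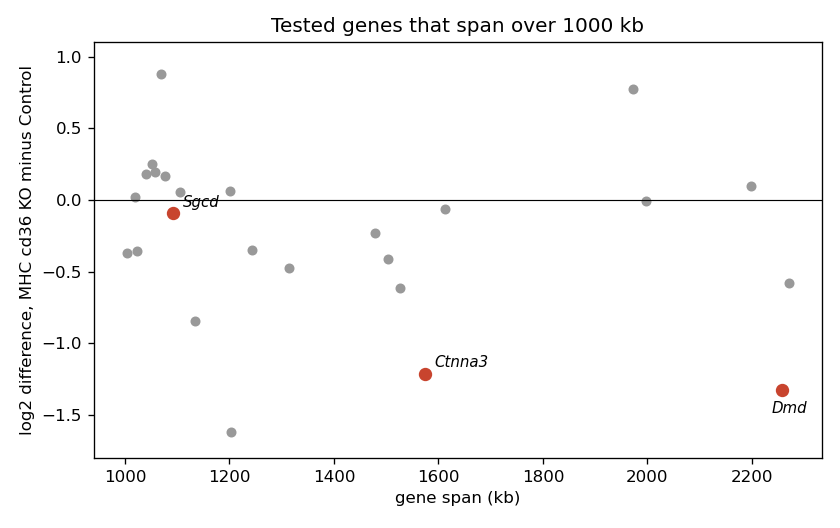
Log2 difference of MHC from Control (vertical axis) against the span of the gene in kb (horizontal axis) for the 25 tested genes over 1000 kb, with the members in red. Dmd (-1.32) and Ctnna3 (-1.21) lie low, and Sgcd (-0.09) lies near 0. The lowest point is Ccser1 (-1.62), which is not a member.

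Partner genes of these structures were tested, since the choice of the 9 members did not use them. They formed 5 lists with 86 genes, 78 of them past the filter, and the lists too were drawn up with earlier results of these data known. In MHC against Control, 6 rose and 1 fell (8.97%, beside 5.70% of all genes). The count was 0 without Control replicate 1 and in a fit to these 2 groups alone, 4 without MHC replicate 3 and 12 with DESeq2 on the recovered reads. None passed in EC or Total against Control with limma, where 10 and 8 had an unadjusted p under 0.05. The share of all genes at the unadjusted threshold was not counted, so nothing is read from these counts or from those given below per list. edgeR also called 0 in both, and DESeq2 called 2 and 1.

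Within the rest of the dystrophin complex (11 genes, 6 tested), none passed in MHC against Control, and 2 had an unadjusted p under 0.05. One of them was Sgce, encoding epsilon-sarcoglycan, which is made in many tissues (0.42 ± 0.15, adjusted p = 0.115). The list's median was -0.12. Against EC, 3 of the 6 passed, 1 higher and 2 lower in MHC. The higher one was Sgce, which rose from 233 ± 16.1 to 349 ± 58.1 (0.57 ± 0.13, adjusted p = 0.0107 by limma). Between Total and MHC 3 passed as well, 2 higher in Total and Sgce lower (-0.59 ± 0.13, adjusted p = 0.0118).

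Dystroglycan must carry a special sugar chain to bind laminin, and the 18 genes that build it (17 tested) gave few calls. None passed in MHC against Control, and none had an unadjusted p under 0.05. Between MHC and EC, 1 gene passed: Dpm3, a subunit of the dolichol-phosphate mannose synthase, was higher in MHC (0.48 ± 0.14, adjusted p = 0.0348), a call lost on leaving out any of 6 libraries. That call was also lost with edgeR, with DESeq2, without the filter and in a fit to the 2 groups alone. The Dpm3 means were 127 in MHC, 122 in Control and 91.2 in EC. None passed between Total and MHC, where 2 had an unadjusted p under 0.05.

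Of the 13 matrix genes whose proteins lie at or near dystroglycan (12 tested), 2 rose and 1 fell in MHC against Control. Bgn, encoding the proteoglycan biglycan, stood at 13212 ± 8742 against 3367 ± 552 (1.78 ± 0.37, adjusted p = 0.0219). Its 3 MHC libraries ran from 6557 to 23113, all above Control. Lamc1, the laminin gamma-1 chain, also rose (0.39 ± 0.09, adjusted p = 0.0251), and Agrn, encoding agrin, fell (-0.47 ± 0.11, adjusted p = 0.0286). Lama2, the laminin chain of the muscle basement membrane, did not pass (-0.07 ± 0.11, adjusted p = 0.76). Against EC, Bgn (1.91 ± 0.33, adjusted p = 0.00291), Lamc1 (0.29 ± 0.08, adjusted p = 0.0231) and Hspg2, for perlecan (0.44 ± 0.14, adjusted p = 0.0429), were higher in MHC, and Lama5, the laminin alpha-5 chain, was lower (-0.70 ± 0.20, adjusted p = 0.0298). Lama5 was not lower in MHC than in Control, with means of 2898 in Control, 3176 in MHC and 5157 in EC. Between Total and MHC, Agrn was higher in Total, and Bgn, Lamc1 and Nid1 were lower. Without Control replicate 1 the calls of MHC against Control were lost (Bgn 1.61, Lamc1 0.35, Agrn -0.47), that of Lamc1 also without MHC replicate 3, and that of Agrn also without Control replicate 2, MHC replicate 1 or MHC replicate 3. The calls against EC of Lamc1, Hspg2 and Lama5, but not of Bgn, and those of Agrn and Nid1 between Total and MHC, were each lost on leaving out any of several single libraries. The fibroblast and macrophage markers were higher in the same libraries, and their part in these differences was not tested.

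Among 22 genes of costameres, the rib-like sites that tie the sarcomere to the membrane, and of membrane repair, 3 rose and none fell in MHC against Control. Myof, encoding the repair protein myoferlin, was 265 ± 69.0 against 113 ± 7.43 (1.19 ± 0.20, adjusted p = 0.00882). Anxa1, which encodes annexin A1, rose from 375 ± 3.51 to 831 ± 371 (1.05 ± 0.25, adjusted p = 0.0328). Tln1, for the integrin-binding protein talin-1, rose too (0.47 ± 0.11, adjusted p = 0.0325). Without Control replicate 1 none of the 3 passed (Myof 1.124, Anxa1 1.06). The call of Anxa1 was also lost without Control replicate 2, MHC replicate 3 or Total replicate 3, and that of Tln1 without EC replicate 2, MHC replicates 2 or 3, or Total replicates 2 or 3, left out singly. The fibroblast and macrophage markers were higher in the same libraries, and their part was not tested. In all, 12 of the 22 had an unadjusted p under 0.05 in limma, a count for which no share of all genes is at hand. The list's median difference was 0.20, beside 0.00 for all tested genes.

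Against EC the same list had 10 genes higher and 2 lower in MHC. Besides Myof, Anxa1 and Tln1, the higher ones included Parva (0.46 ± 0.08, adjusted p = 0.0026), the repair genes Trim72 (0.68 ± 0.16, adjusted p = 0.0135) and Dysf (0.41 ± 0.10, adjusted p = 0.0166), and the laminin receptor subunit Itga7 (0.43 ± 0.11, adjusted p = 0.0154). Cmya5, encoding the costamere protein myospryn, was lower (-0.78 ± 0.15, adjusted p = 0.00437), with 10088 ± 2278 in MHC and 17070.2 ± 909 in EC. Total differed from MHC in 5 of these genes: Cmya5 was higher in Total, and Myof, Anxa1, Anxa2 and Parva were lower. Calls against EC were lost for Trim72 without EC replicate 2 or 3, for Dysf without EC replicate 1 or 2 and for Itga7 without MHC replicate 3. The call of Anxa2 between Total and MHC was lost without Total replicate 3. Cell type markers also differed between MHC and EC, and their part in these differences was not tested.

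The 22 genes of the intercalated disc (21 tested), where Ctnna3 acts, gave 1 call in MHC against Control. Tmem43, encoding a membrane protein mutated in a form of arrhythmogenic cardiomyopathy, rose from 663 ± 39.2 to 974 ± 76.8 (0.55 ± 0.11, adjusted p = 0.0213). Jup, Pkp2 and Cdh2, for plakoglobin, plakophilin-2 and N-cadherin, had differences of 0.21 ± 0.21, -0.14 ± 0.10 and 0.12 ± 0.15 and did not pass. Against EC, Tmem43 (0.75 ± 0.10, adjusted p = 8.97e-04) and the gap junction gene Gja1 (0.56 ± 0.13, adjusted p = 0.0104) were higher in MHC. Lower were Ablim1 (-0.66 ± 0.15, adjusted p = 0.0103), Dsp for desmoplakin (-0.49 ± 0.14, adjusted p = 0.0248), Mllt4 for afadin (-0.50 ± 0.10, adjusted p = 0.00647) and Tjp1 (-0.39 ± 0.12, adjusted p = 0.04). Of the 21, 4 passed between Total and MHC: Nrap and Dsp were higher in Total, and Tmem43 and Gja1 lower. The call of Tmem43 against Control was lost without Control replicate 1 or MHC replicate 1 (0.49 to 0.61 over all libraries left out in turn). Against EC, that of Dsp was lost without EC replicate 2 or 3 and that of Tjp1 on leaving out any of 8 libraries. Between Total and MHC those of Nrap, Dsp and Gja1 were lost without 2, 5 and 1 of the libraries in turn. The part of the cell type markers that differed between MHC and EC was not tested here either.

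**Figure D5:**
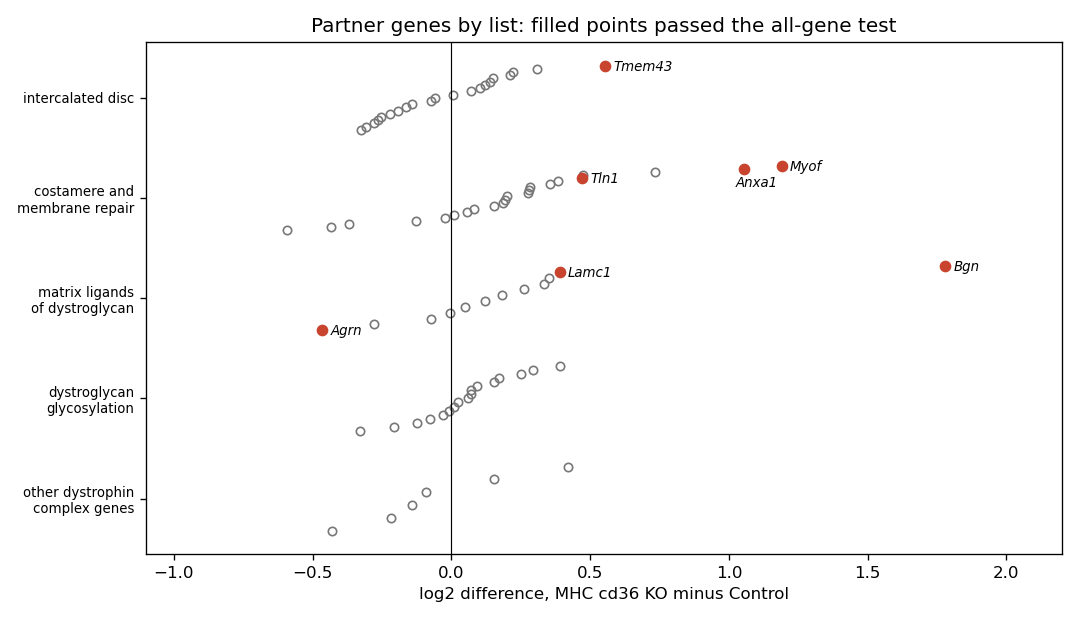
Log2 difference of MHC from Control (horizontal axis) for the 78 tested partner genes, a row per list (vertical axis). Filled, named points passed the test over all genes: 6 lie above 0 and Agrn (-0.47) below it, and the dystroglycan glycosylation and other dystrophin complex lists have none.

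Over all 5 lists, 26 partner genes passed between MHC and EC (33.3%, beside 19.1% of all genes), 17 higher and 9 lower. The split was 29 and 7 after rescaling by library total and 27 and 4 by upper quartile. The count was 15 without EC replicate 2 and 14 without replicate 1 of the 3 knockout groups together. Between Total and MHC 16 passed (20.5%, beside 16.4%), 6 higher and 10 lower, with splits of 4 and 22 and of 2 and 14 on those scales. Without Total replicate 3 the count was 10. None passed between Total and EC with limma, edgeR or DESeq2, and 8 had an unadjusted p under 0.05 in limma. The part of cell type content in the partner calls was not tested for any list.

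Over the 11 libraries the levels of Dmd and Ctnna3 had a Pearson's r of 0.95 on the log2 scale. Both genes were chosen with their low MHC values known, so this coefficient describes the choice and nothing is read from it. As a description, the coefficient was 0.53 over the 8 libraries outside the MHC group. The genes ranked by likeness had a mean of at least 50, and the other members, predicted genes and symbols read as dates were left out. Among these 10339 genes, Ctnna3 ranked 21st in likeness to Dmd, and Dmd ranked 8th for Ctnna3. Among the 5 genes most like Dmd were Mrpl50 (r = 0.98), Dbt (0.98), Ube2g1 (0.98) and BC004004 (0.97). Dbt, a subunit of the branched-chain keto acid dehydrogenase, had means of 1719 in Control, 1929 in EC, 1009 in MHC and 1867 in Total. The 5 most like Ctnna3 were Kifap3 (0.98), Dnajc25 (0.96), Taf7 (0.96), Gpcpd1 (0.96) and Apex2 (0.96). Gpcpd1, a phosphodiesterase gene, had means of 5522, 8318, 3034 and 7195 in the same order, and so shared with Ctnna3 the high EC and low MHC level. Its Total mean lay above that of Control, while Ctnna3 had means of 364 in Total and 375 in Control. All of these genes share the libraries and their group structure.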

How the data were processed

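Libraries were made from 400 ng of total heart RNA with a stranded kit that removes ribosomal RNA, per the labels' protocols. The submitters' processing notes name TopHat2 (version not given), HTSeq 0.8.0, DESeq2 (given as 3.5) and mm10. The counting mode and annotation are not given in the sources used here. The deposited signal values are read counts per gene that the authors divided by a factor per library, and all 257620 values were whole reads within 0.05. Every sample column was used.

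log2(value + 1) was fitted for 12976 genes, those averaging 10 or more, with limma 3.58.1 (R 4.3.3, trended prior) over all 11 libraries, with 6 contrasts and Benjamini-Hochberg adjustment per contrast. A fold on this scale understates the change of low genes. Exon lengths came from the merged gene models of GENCODE for GRCm38. The fit was repeated with pseudocounts of 0.5 and 5, without a filter, for genes averaging 50 or more, with 2 rescalings (library total and upper quartile), within the pair of groups compared, with edgeR 4.0.16 and DESeq2 1.42.0 on recovered reads, without each library in turn, and without replicate 1 of the 3 knockout groups together.

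The members, lists and alternatives were chosen with earlier results of these data known. Partner genes named are those that passed per list (8 of lowest p at most) or, where none passed, 2 of lowest p; 5 genes of highest r are named for likeness. Some genes that meet these rules are not reported here. Lama2, Jup, Pkp2, Cdh2, Ctnna1, Ptprd and Ccser1 were named after their values were seen. The labels do not say that libraries are separate animals, so p-values reflect the library spread alone, which may be technical.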

Additional observations from a re-analysis of the deposited data

How the results depend on the processing

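Of 1128 values of the members under the alternatives, over 54 comparisons, 1088 moved by less than the replicate spread and 40 by more, 30 of them on leaving out a Control library. Over the 21 alternatives the difference between MHC and Control ranged from -1.50 to -1.14 for Dmd, -1.42 to -1.0 for Ctnna3 and -0.57 to -0.36 for Sgca. Differences of Dag1, Sgcd, Dtna and Sntb1 between MHC and Control changed sign between leaving out 1 and the other Control library. Among values of the named partner genes that passed, 801 kept their call and 144 lost it.

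Counts of partner genes called moved by over 1.5 times as follows, and the cause was not tested. With DESeq2 they were 2 in EC, 12 in MHC and 1 in Total against Control, and a fit to the 2 groups gave 0 in MHC. Without replicate 1 of the 3 knockout groups together, 14 passed between MHC and EC and 1 between Total and EC. Rescaling by library total gave 26 between Total and MHC. Leaving out each library in turn gave 0 to 1 in EC, 0 to 9 in MHC and 0 to 0 in Total against Control, 15 to 28 between MHC and EC, 0 to 0 between Total and EC and 10 to 21 between Total and MHC. Where 1 Control library was left, its spread was taken from the other groups. Rescaling moved the median of all genes past 0.1 in EC against Control (-0.11 by upper quartile), MHC against EC (0.12 by library total, 0.15 by upper quartile) and Total against MHC (-0.14 by library total). No paired analysis was possible because the labels tie no library to any library of another group. Depth limits Sntb1 and Sgcd most, with 3 and 30 reads in EC replicate 1.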
